A study of Arabidopsis thaliana with 12 samples.

Results

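Among the nuclear genes measured in bromoxynil-treated Arabidopsis thaliana, 24 genes of low to middling intensity had a lower level after the return of light than in darkness in each of 4 sample numbers. They were chosen from 3439 array probes by measured values. A probe had to carry exactly 1 gene in the platform annotation and to lie above 0 in all 12 samples, which left 633 probes. The 20% of these with the highest mean dark level were set aside, which left 506. A gene was kept when light minus dark, on the log2 scale after quantile normalisation of numbers 3, 4, 5 and 6, was -0.15 or less in each of those numbers. That held for 25 of the 506 probes (4.94%), and 1 of the 25 was among 9 probes that the rule leaves out. Over all 3193 probes above 0 in every sample, 191 (5.98%) met the same limit. The mirrored limit, higher in light by the same amount in each number, was met by 6.42% of all probes and 5.93% of the 506. Because the differences in numbers 3 to 6 chose the genes, they are given as a description, without a test. Numbers 1 and 2 entered the choice only through the filter on values above 0 and the dark level, and their differences carry the only test.

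The light group (n = 6) held total RNA of wild-type plants of the Landsberg ecotype that had 500 µM bromoxynil and were put back into light for 30 min after 12 h in darkness. The dark group (n = 6) held total RNA of wild-type Landsberg plants with 500 µM bromoxynil after 12 h in darkness. All 12 samples thus share the herbicide, and plants without it were not analysed here. The labels give neither the organ nor the age of the plants, and they do not say whether samples of 1 group came from separate plants, so a p-value here reflects no more than the spread among the samples at hand, which could be technical. The sample numbers pair light with dark, as described with the processing.

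Bromoxynil is a nitrile herbicide that binds at photosystem II and stops electron flow to plastoquinone. Chloroplasts signal their state to the nucleus, and the redox state of the photosynthetic electron transport chain is one of the known signals. Most chloroplast and mitochondrial proteins are encoded in the nucleus, so such signals, together with photoreceptors and the circadian clock, set the supply of organelle proteins after a change of light. In RNA of whole samples, fewer cells of a type and less RNA per cell cannot be told apart. Of 25 listed genes of green tissue 6 were on single-gene probes, with mean dark levels between the 21.2 and the 99.7 percentile of the 633. LHB1B2, an antenna protein of photosystem II, was among them. None of the 7 seed storage and 2 root genes on the marker lists was on a single-gene probe, and their levels were not analysed here.

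Intensities are on a relative linear scale on which the brightest spot is 100 in 10 of 12 samples. The median spot had 0.559 to 0.583 in light 3 to 6, against 0.624 to 0.654 in dark 3 to 6. Light 1 and light 2 stood apart, with medians of 3.88 and 3.90, against 0.654 and 0.648 in dark 1 and dark 2. Changes in numbers 1 and 2 were wider, with an SD across probes of 0.866 for their mean log2 change, against 0.287 for the mean of numbers 3 to 6. Across the 3193 probes the changes of numbers 1 and 2 correlated at 0.826 (Pearson), those of 3 with 4 and of 5 with 6 at 0.463 and 0.420, and those of 1 or 2 with 3 to 6 at only 0.196 to 0.234. In numbers 1 and 2 the change of a probe also went with its place in the probe list. The mean change correlated at 0.587 with that of the probe next in number, against 0.146 for numbers 3 to 6 (3192 pairs each). Probes of 1 sample share its RNA and its scaling, so all these values describe the samples and carry no p. The labels and tables used here do not say where probes lie on the array. Numbers 3 and 4, and 5 and 6, were more alike than other numbers among 3 to 6, where the correlations were 0.282 to 0.365, so the 4 numbers may hold less than 4 independent observations. Numbers 1 and 2, at 0.826, were more alike still. The 2 numbers that carry the test may thus hold less than 2 independent observations, and its SE, intervals and p-values take them as separate.

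In numbers 3 to 6 the mean log2 difference of the 24 genes ran from -1.69 to -0.23, with a median of -0.46, or 1.38-fold. The median over all 3193 probes was -0.01. A mean difference of -0.5 or less was found for 10 of the 24, and of -1 or less for 1. Deposited intensities of light 3 to 6 all lay below those of dark 3 to 6 for 22 genes, and the groups overlapped for 2. After normalisation, which removes the lower median of the light samples, the groups did not overlap for 17 of the 24 and overlapped for 7. Over all probes this held for 16.6% before and 7.02% after normalisation, and nothing is read from these counts because the choice of genes used the same values. The median difference of the genes was -0.32, -0.29, -0.40 and -0.52 in numbers 3, 4, 5 and 6. Number 6 held the lowest difference of 10 genes and number 3 that of 2. The sign did not turn for any of the 24 in any of numbers 3 to 6 with quantile normalisation over 12 samples, with median centring or without scaling. The median over all probes was -0.01, 0.01 and -0.14 in these settings. Since the choice of genes had already required each difference to lie at or below a negative limit, nothing is read from the unchanged signs.

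**Figure D1:**
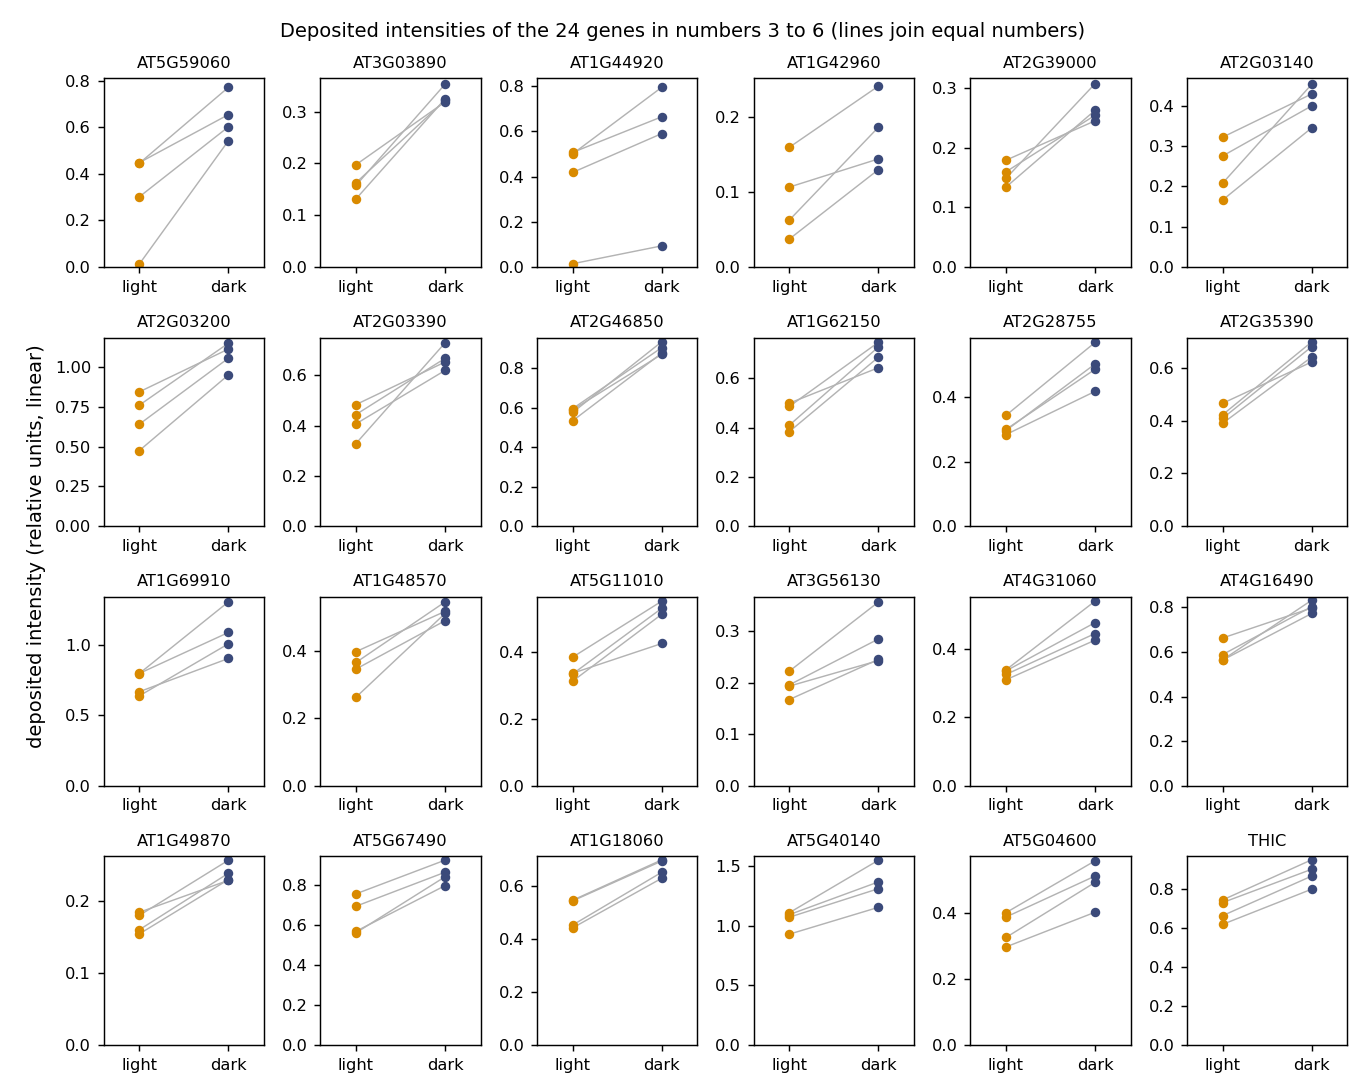
Deposited intensity (relative units, linear axis from 0) of each of the 24 genes in light 3 to 6 (orange, left) and dark 3 to 6 (blue, right), with a grey line joining samples of the same number; genes are ordered by their mean difference. Every line runs upward from light to dark, and the 2 groups overlap for AT1G44920 and AT1G42960 only.

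The check in numbers 1 and 2 gave a mixed picture. Light was lower than dark in both numbers for 10 of the 24 genes (41.7%), higher in both for 7 (29.2%), and of opposite sign for 7. Over all 3193 probes 35.1% were lower in both numbers, and 31.0% of the 506 dimmer single-gene probes were. Of all probes 48.4% were higher in both. The median change of the 24 genes was -0.02, against 0.11 over all probes and 0.13 over the 506. A difference of -0.15 or less in both numbers was met by 7 genes (29.2%), against 26.2% of all probes and 22.3% of the 506. These 7, which are lower by that limit in all 6 numbers, were AT2G03200, AT2G03140, AT2G03390, AT1G69910, AT5G40140, AT1G18060 and AT1G44920.

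**Figure D2:**
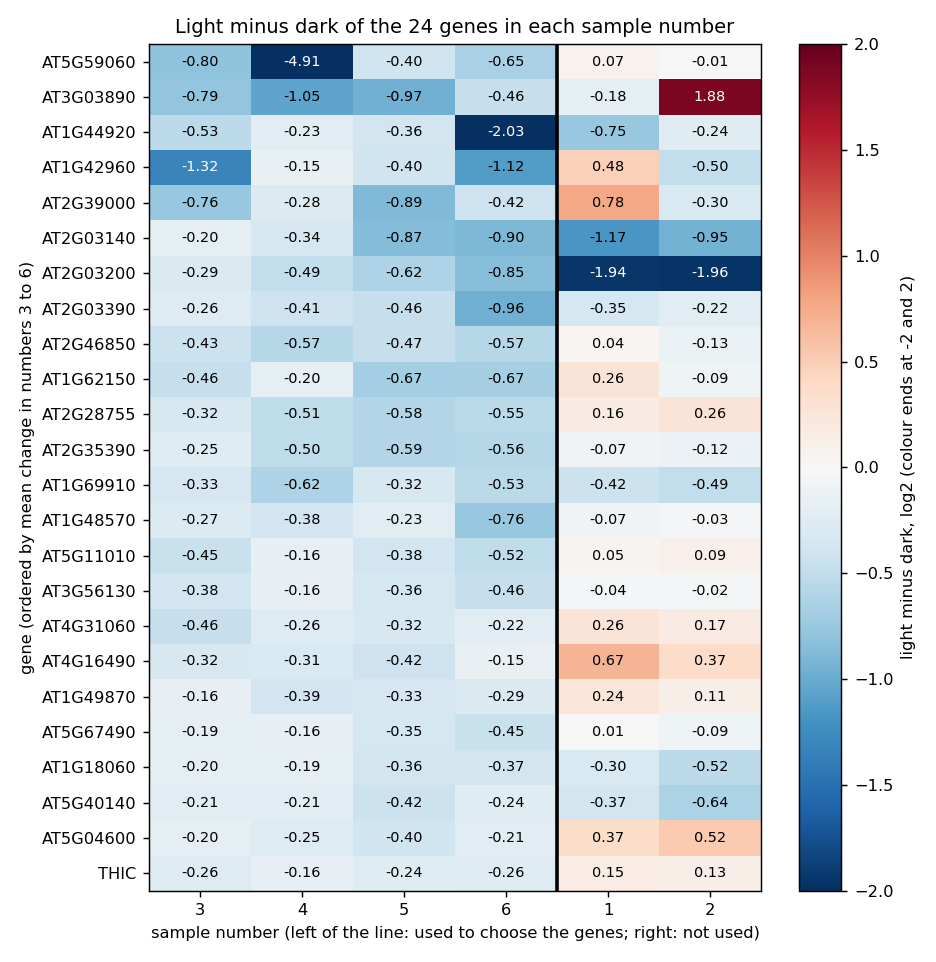
Light minus dark (log2, printed in each cell) of the 24 genes in numbers 3, 4, 5 and 6, which chose them, and in numbers 1 and 2, which did not; blue is lower and red is higher in light. Left of the line every cell is -0.15 or less by construction, whereas right of it 10 genes are below 0 in both numbers and 7 above 0 in both.

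With limma over all 3193 probes, light against dark in numbers 1 and 2 called 432 probes lower (13.5%) and 375 higher (11.7%) at an adjusted p under 0.05. Since probes next in number changed alike there, the calls are not independent of each other, and the part of this in them was not tested. Of the 24 genes 3 (12.5%) fell in this test and 0 rose, where an unadjusted p under 0.05 was found for 4 lower and 2 higher. Of the 506 dimmer single-gene probes 10.7% were called lower, so the share among the 24 was near that of other probes. These counts come from a fit that leaves out the pairing by number, as do the SE and intervals given below. With the sample number as a block, 405 probes were called lower and 305 higher, and 2 of the 24 genes were called lower. Without scaling, 61 probes were called lower and 2992 higher, because the median change of all probes was then 2.67, and 0 of the 24 genes were called lower (0 at an unadjusted p under 0.05). When light 1 or light 2 was left out, limma called 0 of the 3193 probes, with an unadjusted p under 0.05 and a lower level in light for 425 and 440. Then 0 of the 24 genes were called as well, and 3 and 2 of them were lower at an unadjusted p under 0.05. Without dark 1 or dark 2 the counts over all probes were 220 and 210 lower, and 1 and 2 of the 24 genes were called.

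**Figure D3:**
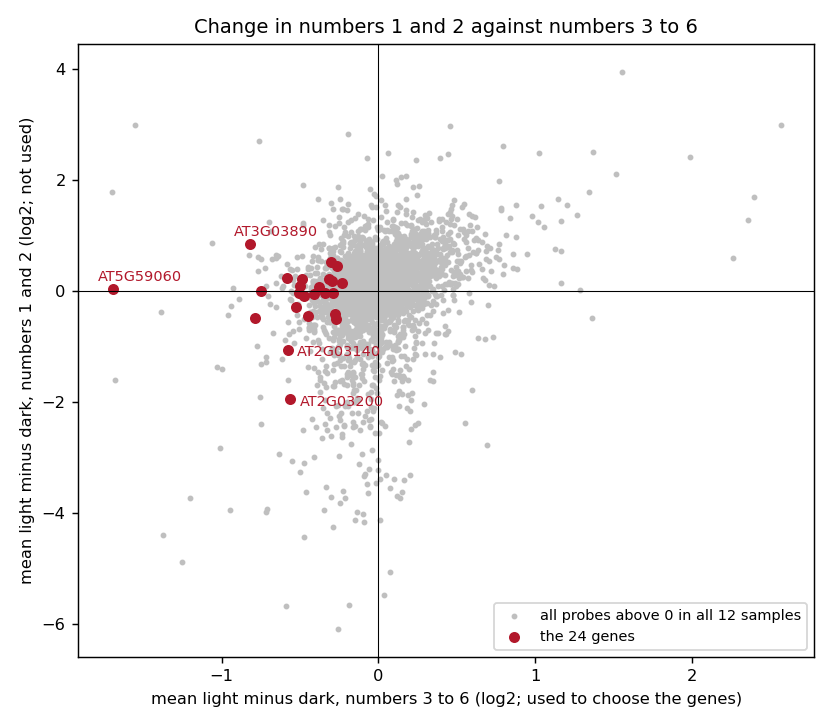
Mean light minus dark in numbers 1 and 2 (log2, vertical) against that in numbers 3 to 6 (log2, horizontal) for the 3193 probes above 0 in all samples (grey) and the 24 genes (red). The 24 genes lie left of 0 by choice and on both sides of 0 on the vertical axis, from -1.95 for AT2G03200 to 0.85 for AT3G03890.

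The classes used below were made by hand after the values were seen, so their counts are no result about a class. Genes of proteolysis and the ubiquitin system make up 3 of the 24. Light was lower than dark in both numbers 1 and 2 for these 3, as it was for 35.1% of all probes. AT2G03200 encodes a protein of the aspartyl protease family, enzymes that cut proteins at acidic pH. Its deposited intensities were 0.843, 0.760, 0.640 and 0.475 in light 3 to 6, against 1.11, 1.15, 1.05 and 0.950 in dark 3 to 6. The highest light value lay below the lowest dark value. Its normalised differences were -0.29, -0.49, -0.62 and -0.85, wider in numbers 5 and 6 than in 3 and 4. The normalised log2 level in numbers 1 and 2 was -0.38 and -0.36 in light, against 1.56 and 1.60 in dark. AT2G03200 fell there by 1.95 ± 0.09 (SE) on the log2 scale, or 3.87-fold (limma adjusted p 0.00299, 95% CI -2.20 to -1.70). It had the largest fall of the 24 in numbers 1 and 2, and limma gave an adjusted p of 0.0126 with the sample number as a block. Without light 1 and without light 2 its change was -1.91 and -1.92, with a limma adjusted p of 0.0782 and 0.0819. Its deposited intensities were 1.81 and 1.81 in light 1 and light 2, against 1.18 and 1.20 in dark 1 and dark 2. Without scaling its change was thus 0.60, below the 2.67 of the median probe, and was called higher (limma adjusted p 0.00340). Its probe has number 75, and of the 20 tested probes next to it in number 7 were called lower in numbers 1 and 2 (35.0%), against 13.5% of all probes. The changes of these 20 ran from -1.71 to 0.63 with a median of -0.15, and AT2G03200 was lower than each of them. The median does not describe the probes nearest to it. The nearest tested probe on each side was called lower, and 1 of these had the change of -1.71. Among the 20 tested probes next in number to AT2G03140, the lowest change was -2.45, a wider fall than that of AT2G03200. The fall was thus not limited to this gene, and its rank among its own 20 does not set it apart from its place in the probe list.

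AT2G03390, a protein with a UVR motif that acts as an adaptor of the plastid Clp protease, had 0.483, 0.444, 0.407 and 0.328 in light 3 to 6, against 0.652, 0.667, 0.619 and 0.728 in dark 3 to 6. The light samples were all lower, and number 6 had the widest difference, -0.96, with the other 3 between -0.46 and -0.26. Numbers 1 and 2 had -0.35 and -0.22, and the mean of -0.28 did not pass (limma adjusted p 0.174, 95% CI -0.64 to 0.07). AT5G40140 encodes a U-box protein with ARM repeats, a class of E3 ligases that attach ubiquitin to other proteins. It was the brightest of the 24 in the dark, at the 79.3 percentile of the single-gene probes. Its intensities were 0.930, 1.07, 1.11 and 1.09 in light 3 to 6, against 1.16, 1.31, 1.55 and 1.37 in dark 3 to 6. The normalised groups overlapped although each number was lower in light, by -0.21, -0.21, -0.42 and -0.24. Its differences of numbers 1 and 2 were -0.37 and -0.64, with a mean of -0.50 that did not pass (limma adjusted p 0.303, 95% CI -1.42 to 0.42).

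AT2G03140, of the alpha/beta-hydrolase family, had 0.323, 0.276, 0.166 and 0.208 in light 3 to 6, against 0.430, 0.401, 0.346 and 0.454 in dark 3 to 6. Numbers 5 and 6 differed most, at -0.87 and -0.90, while numbers 3 and 4 had -0.20 and -0.34. Its normalised log2 level in numbers 1 and 2 was -1.31 and -1.20 in light, against -0.14 and -0.25 in dark. AT2G03140 fell there by 1.06 ± 0.10 (SE) on the log2 scale, or 2.08-fold (limma adjusted p 0.0122). The groups were far apart compared with the spread within each. Its change was -0.95, -1.07 and -1.03 without light 1, light 2 and dark 1, about as large, with a limma adjusted p of 0.127, 0.113 and 0.0505. Without scaling the change was 1.29, again below the median probe but called higher (limma adjusted p 0.000704). Its probe has number 87, and of the 20 tested probes next to it in number 12 were called lower (60.0%), with a median change of -1.20. AT2G03140 thus changed like its neighbours in the probe list, of which AT2G03200 is 1, and the part of their common place in both calls was not tested. In numbers 3 to 6 the mean changes of the 20 probes next to AT2G03140 had a median of -0.33. Those of the 20 next to AT2G03200 had a median of -0.14, against -0.01 over all probes. The part of place in the lower light levels of numbers 3 to 6 was not tested either. AT2G03140 and AT2G03200 stand close together on chromosome 2, with 5 protein-coding loci between their entries in RefSeq (assembly TAIR10.1). None of these loci was on a probe with 1 annotated gene or with several, and their levels were not analysed here.

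Both members of the protein kinase superfamily were among the brighter genes. AT1G69910 had 0.800, 0.799, 0.669 and 0.640 in light 3 to 6, against 1.09, 1.31, 0.907 and 1.01 in dark 3 to 6. Its differences of -0.33, -0.62, -0.32 and -0.53 averaged -0.45. Its normalised log2 level in numbers 1 and 2 was 0.59 and 0.60 in light, against 1.02 and 1.09 in dark, a change close to that in numbers 3 to 6. AT1G69910 fell there by 0.46 ± 0.09 (SE) on the log2 scale, or 1.37-fold (limma adjusted p 0.0419). With the sample number as a block, limma gave an adjusted p of 0.0615, and over the scaled alternatives it ran from 0.0243 to 0.198. It missed the threshold when any 1 of the 4 samples was left out, though its change stayed between -0.51 and -0.42, and its change without scaling was 2.16. Of the 20 tested probes next to it in number 1 was called lower, and their median change was 0.24. AT2G46850 had 0.591, 0.535, 0.596 and 0.577 in light 3 to 6, against 0.872, 0.878, 0.906 and 0.936 in dark 3 to 6. Its differences lay between -0.57 and -0.43, with an SD of 0.07 over the 4 numbers. Those of numbers 1 and 2 were 0.04 and -0.13, and the mean of -0.04 did not pass (limma adjusted p 0.820, 95% CI -0.42 to 0.34).

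Of 6 genes of metabolism, 2 were lower and 1 was higher in light in both numbers 1 and 2, and none was called. THIC encodes the enzyme that makes the pyrimidine part of thiamine (vitamin B1) in the chloroplast. Its intensities were 0.664, 0.731, 0.619 and 0.744 in light 3 to 6, against 0.867, 0.902, 0.800 and 0.951 in dark 3 to 6. The groups did not overlap, and differences of -0.26, -0.16, -0.24 and -0.26 gave the smallest mean of the 24, -0.23, with the smallest SD, 0.05. THIC had 0.15 and 0.13 in numbers 1 and 2 (mean 0.14, limma adjusted p 0.303, 95% CI -0.12 to 0.39). AT2G35390, a ribose-phosphate pyrophosphokinase that makes the activated ribose for nucleotide synthesis, had 0.465, 0.390, 0.408 and 0.422 in light 3 to 6, against 0.622, 0.641, 0.680 and 0.698 in dark 3 to 6. Its mean difference was -0.48, and its differences in numbers 1 and 2 were -0.07 and -0.12 (limma adjusted p of the mean 0.475, 95% CI -0.35 to 0.16).

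AT3G56130 encodes a biotin/lipoyl attachment domain protein, of a class that lowers the activity of the plastid acetyl-CoA carboxylase, the entry enzyme of fatty acid synthesis. It had 0.167, 0.193, 0.196 and 0.222 in light 3 to 6, against 0.245, 0.243, 0.285 and 0.357 in dark 3 to 6. Its differences were -0.38, -0.16, -0.36 and -0.46, and -0.04 and -0.02 in numbers 1 and 2. A second probe, which carries AT3G56130 together with AT1G52670 and AT3G15690, had 0.04, 0.17, -0.28 and -0.29 in numbers 3 to 6, and -1.03 and -2.20 in numbers 1 and 2. It was thus lower in light in 4 of the 6 numbers, and in numbers 1 and 2 by far more than the single-gene probe. AT5G67490, an assembly factor of mitochondrial succinate dehydrogenase, had 0.692, 0.754, 0.567 and 0.559 in light 3 to 6, against 0.861, 0.922, 0.795 and 0.839 in dark 3 to 6. Its mean difference was -0.29, and its differences in numbers 1 and 2 were 0.01 and -0.09.

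The other 2 genes of metabolism were dim. AT3G03890, a protein of the FMN-binding split barrel family, had 0.163, 0.131, 0.158 and 0.198 in light 3 to 6, against 0.322, 0.325, 0.353 and 0.319 in dark 3 to 6. The groups were well separated, and differences of -0.79, -1.05, -0.97 and -0.46 gave a mean of -0.82, or 1.76-fold. Its differences in numbers 1 and 2 were -0.18 and 1.88, since dark 2 had an intensity of only 0.0537 where dark 1 had 0.347. The mean of 0.85 there had an SE of 1.39 and a 95% CI of -3.17 to 4.87, which spans wide changes in either direction. A probe shared by AT3G03890, AT1G51560 and AT3G21140 had -0.15, -0.13, 0.32 and -0.02 in numbers 3 to 6 and -0.46 and -0.39 in numbers 1 and 2, so the shared probe and the single-gene probe differed. AT2G39000, of a plastid N-acetyltransferase family, had 0.134, 0.179, 0.149 and 0.160 in light 3 to 6, against 0.263, 0.245, 0.308 and 0.255 in dark 3 to 6. Its mean difference was -0.58, and in numbers 1 and 2 it had 0.78 and -0.30, of opposite sign.

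Genes of RNA handling and transcription make up 5 of the 24. Light was lower in both numbers 1 and 2 for 1 of them and higher in both for 3, and none was called. AT1G62150, of the mTERF family of organelle gene expression factors, had 0.486, 0.499, 0.410 and 0.384 in light 3 to 6, against 0.746, 0.643, 0.727 and 0.686 in dark 3 to 6. Its mean difference was -0.50, and numbers 1 and 2 had 0.26 and -0.09. AT1G48570, a protein with zinc fingers of the Ran-binding type, had 0.345, 0.365, 0.397 and 0.262 in light 3 to 6, against 0.488, 0.544, 0.516 and 0.510 in dark 3 to 6. It was the member of this class that was lower in both other numbers, by -0.07 and -0.03, and its limma adjusted p was 0.764. AT5G11010, of a family of pre-mRNA cleavage complex II proteins, had a mean difference of -0.38, and 0.05 and 0.09 in numbers 1 and 2.

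AT5G04600, an RNA-binding protein with an RNA recognition motif, had 0.386, 0.400, 0.325 and 0.296 in light 3 to 6, against 0.510, 0.556, 0.491 and 0.401 in dark 3 to 6. Its differences of -0.20, -0.25, -0.40 and -0.21 stood against 0.37 and 0.52 in numbers 1 and 2, the opposite direction. There its mean of 0.45 ± 0.10 (SE) missed the threshold (limma adjusted p 0.0561, unadjusted 0.0150). It passed without the dimmest 25% of probes (limma adjusted p 0.0342). It did not pass with blocking by number or with median centring (limma adjusted p 0.0696 and 0.0508). Without light 1, light 2, dark 1 and dark 2 its change was 0.44, 0.44, 0.53 and 0.38. AT4G31060, of the AP2/ERF family of plant transcription factors, had 0.338, 0.324, 0.335 and 0.309 in light 3 to 6, against 0.539, 0.444, 0.476 and 0.425 in dark 3 to 6. Its light values were nearly level while the dark ones varied, and its mean difference was -0.32. Numbers 1 and 2 had 0.26 and 0.17 (limma adjusted p of the mean 0.334).

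**Figure D4:**
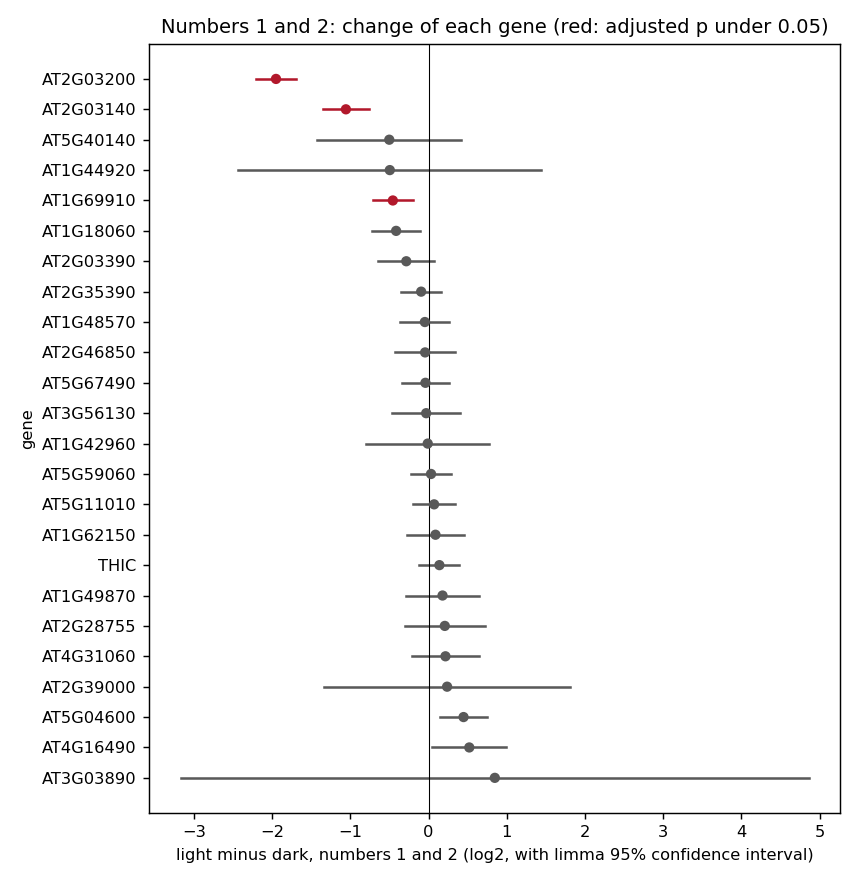
Change of each of the 24 genes in numbers 1 and 2 (log2, light minus dark, n = 2 each) with the 95% confidence interval of limma; the 3 genes with an adjusted p under 0.05 are red. AT2G03200, AT2G03140 and AT1G69910 lie below 0, and the widest interval, that of AT3G03890, runs from -3.17 to 4.87.

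AT5G59060 had the most negative mean of the 24 in numbers 3 to 6, and 1 sample decided its size. Its intensities were 0.301, 0.0118, 0.448 and 0.445 in light 3 to 6, against 0.602, 0.543, 0.655 and 0.772 in dark 3 to 6. Light 4 lay far below the other light samples, and the difference in number 4 was -4.91, against -0.80, -0.40 and -0.65 in numbers 3, 5 and 6. The mean of -1.69 was -0.62 without number 4, and numbers 1 and 2 had 0.07 and -0.01. AT1G44920 had 0.50, 0.507, 0.418 and 0.0138 in light 3 to 6, against 0.795, 0.665, 0.590 and 0.0931 in dark 3 to 6. Here both samples of number 6 were low, and the groups overlapped. The difference of number 6, -2.03, was the widest, and the mean of -0.79 was -0.37 without it. AT1G44920 had -0.75 and -0.24 in numbers 1 and 2 (limma adjusted p of the mean 0.616, 95% CI -2.43 to 1.44).

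AT1G42960, a protein of the chloroplast inner envelope, was the dimmest of the 24, at the 4.90 percentile of the single-gene probes. It had 0.0623, 0.106, 0.159 and 0.0371 in light 3 to 6, against 0.186, 0.144, 0.241 and 0.130 in dark 3 to 6. The groups overlapped, the differences ran from -1.32 to -0.15, and numbers 1 and 2 had 0.48 and -0.50, of opposite sign. AT1G18060 had 0.544, 0.546, 0.442 and 0.453 in light 3 to 6, against 0.694, 0.698, 0.629 and 0.652 in dark 3 to 6. All 6 of its differences were negative, with -0.30 and -0.52 in numbers 1 and 2. Its mean there, -0.41 ± 0.10 (SE), missed the threshold (limma adjusted p 0.0674, unadjusted 0.0202). It passed without the dimmest 25% of probes and with trend and robust (limma adjusted p 0.0430 and 0.0424). It also passed with the spread from all 12 samples (limma adjusted p 0.0186). Because that spread includes numbers 3 to 6, which chose the genes, the last p is not independent of the choice. It did not pass with blocking by number, median centring or quantile normalisation over 12 samples (limma adjusted p 0.0903, 0.0762 and 0.0669). Without light 1, light 2, dark 1 and dark 2 its change was -0.48, -0.33, -0.46 and -0.38.

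The last 3 genes were higher in light in both numbers 1 and 2. AT4G16490, an ARM repeat protein, had 0.588, 0.564, 0.565 and 0.663 in light 3 to 6, against 0.804, 0.773, 0.833 and 0.798 in dark 3 to 6. Its differences in numbers 1 and 2 were 0.67 and 0.37, against a mean of -0.30 in numbers 3 to 6 (limma adjusted p in numbers 1 and 2 0.0997, unadjusted 0.0384). With the sample number as a block it did not pass (limma adjusted p 0.0785). It passed there with the spread estimated from all 12 samples (limma adjusted p 0.0141). That spread takes in numbers 3 to 6, which chose the genes, so this p is not independent of the choice. AT2G28755 had a mean difference of -0.49 in numbers 3 to 6, with differences of 0.16 and 0.26 in numbers 1 and 2. AT1G49870 had a mean difference of -0.29 in numbers 3 to 6, with 0.24 and 0.11 in numbers 1 and 2. Whether the effects of numbers 1 and 2 and of numbers 3 to 6 differ was not tested, since the second set chose the genes. Light 1 and light 2, whose medians stood apart, enter every value of numbers 1 and 2, and their part in the difference from numbers 3 to 6 was not tested.

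The 24 genes spread over the dark levels left by the brightness limit, from the 4.90 to the 79.3 percentile of the 633 single-gene probes, with a median at the 41.9 percentile. The dimmest 20% of the 633 held 5 of the 24 (20.8%), against 24.9% of the 506. Just inside the limit of -0.15 stood AT4G16490, AT1G42960 and AT5G11010, with a weakest number of -0.151, -0.154 and -0.157. Just outside stood AT4G19430, AT1G65500 and AT4G21170, with -0.149, -0.148 and -0.139 in the number that failed. Scaling moves genes across this line: with median centring 4 of the 24, AT4G16490, AT5G67490, AT5G40140 and THIC, no longer met the limit in each number.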

How the data were processed

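Per the labels, total RNA of 12 samples was put on arrays, each sample in 1 channel. The deposited values are spot intensities on a linear relative scale, as the values show. The authors' scanning, background correction and scaling were not given in the sources used here. Precision is limited by the number of samples, and spot backgrounds were not analysed here. Groups and numbers come from the sample titles.

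Probe genes come from the platform annotation: 692 probes carry 1 gene and 870 several. RefSeq (TAIR10.1) matched 690 of the 692 and all 24 members. The RefSeq names held a role word for 0 members, so the keyword classes could not be applied. Members were grouped by hand, from background knowledge, after their values were seen. The members and lists were chosen with earlier results of these data known. With 30 members or fewer, the rule for named genes takes all of them, plus the 3 genes just outside the limit. No sequence of the members was used here.

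Log2 intensities of probes above 0 in all 12 samples were quantile normalised, over numbers 3 to 6 for the choice of genes and separately over numbers 1 and 2 for the test. Light was compared with dark in numbers 1 and 2 with lmFit and eBayes of limma 3.58.1 under R 4.3.3 (two-sided test, no covariate, Benjamini-Hochberg adjusted p under 0.05 over 3193 probes). The fit was also run on simulated data in which probes and samples varied independently. That run held neither the pairing by number nor the likeness of probes next in number, so it cannot show how the calls fare under either. Deviations from the group means of light and dark samples of 1 number correlated at 0.418 to 0.521 across probes in all 6 numbers, so the numbers pair the samples. The sample number as a block was an alternative, besides other scaling, a pseudocount of 0.211, filters on dim probes, other estimates of the spread and leaving out each sample.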

Additional observations from a re-analysis of the deposited data

Results flagged for a closer look

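For each of the 24 genes the 6 light and the 6 dark samples, quantile normalised over all 12 samples, were examined for a sample at an end that lay far from the other 5. This was so in 5 of 48 groups. The nominal rate of about 1 in 20 is no measure for this count, because values of numbers 3 to 6 chose the genes. The share over other probes was not taken, so the 5 are only listed. Light 4 had a log2 level of -5.65 for AT5G59060, against a light median of -0.59 (deposited intensity 0.0118). Light 6 had -5.40 for AT1G44920, against a light median of -0.59 (deposited intensity 0.0138). Both add to the lower light level of these genes. Dark 2 had -4.05 for AT3G03890, against a dark median of -1.30. Dark 1 had -2.87 for AT2G39000, against a dark median of -1.67. Dark 6 had -0.94 for AT5G04600, against a dark median of -0.63. These low dark values narrow or turn the difference of their own number.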

How the results depend on the processing

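The 24 genes became 29 with median centring, 20 of them shared, and 25 with quantile normalisation over 12 samples. They became 87 without scaling, 43 and 14 with limits of -0.10 and -0.20, and 37 without the brightness limit. Averaging numbers 3 and 4 and numbers 5 and 6 gave 57, and using 1 of these pairs alone gave 62 and 92. These 3 settings were chosen after the data were seen. Looser limits raise a count by construction. Without scaling, 0 of the 24 genes were lower in both numbers 1 and 2, their median change was 2.58 beside 2.67 over all probes, and 61 probes were called lower, 2992 higher and 0 genes lower. AT2G03200, AT2G03140 and AT1G69910 then had 0.60, 1.29 and 2.16, below the median of all probes. Each of these was then called higher in light (limma adjusted p 0.00340, 0.000704 and 0.000117). Their calls as lower thus hold only after scaling. The higher count was 588 with the spread estimated from all 12 samples. Leaving out each of the 4 samples gave 0 to 220 probes lower, 0 to 143 higher and 0 to 2 of the 24 genes. A fit of 3 samples has fewer degrees of freedom, and its lone sample is assumed to vary like the other group. The replicate block gave 405 lower, 305 higher and 2 of the 24 genes. It ended the call of AT1G69910 and changed no other call among the 24.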
